A study of Mus musculus with 8 samples.

Results

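NRF2, encoded by Nfe2l2, is a transcription factor that switches on genes of the antioxidant defence. The genes described here are Nfe2l2 itself, 5 enzymes that are textbook NRF2 targets (Nqo1, Gclc, Gclm, Txnrd1 and Srxn1) and 4 further antioxidant enzymes (Gpx1, Sod1, Sod2 and Cat). They were chosen by symbol, as known members of this defence, with earlier results of these data known, and are 10 of the 54752 genes in the count tables. All 10 passed the filter on low counts and were among the 17136 genes tested.

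RNA was sequenced from the right cerebral cortex of 8 adult male wild-type (WT) C57BL/6 mice (C57BL/6 J in the methods), 4 after a sham operation and 4 after bilateral carotid artery stenosis (BCAS), 3 weeks after the operation, each library from a single animal. In BCAS, microcoils around both common carotid arteries reduce the blood supply of the brain for weeks. The right artery carried the narrower coil, so the sampled cortex is on the more severely narrowed side. The comparison asks how chronic hypoperfusion alters transcripts in that cortex. The libraries held 16759364 to 21794435 counts, and the smallest library would list a gene at 0 counts for levels of up to 0.187 TMM-normalised counts per 1000000 counts (CPM), the level of 3 counts. Markers of the cerebral cortex were present in every library. Their summed level was 2027 to 2302 CPM in sham and 647 to 1748 CPM in BCAS libraries. Of the 8 markers, 5 fell in BCAS mice, beside 12.8% of all tested genes. Sham library 3 held far more choroid plexus transcripts (summed markers 776 CPM) than the other 7 libraries (15.8 to 71.4 CPM), so results that change without it are named.

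In resting cells the adaptor KEAP1 and the ubiquitin ligase scaffold CUL3 mark NRF2 protein for degradation. Oxidants and electrophiles block this step, and NRF2 then enters the nucleus, pairs with a small MAF protein and binds antioxidant response elements, where BACH1 can compete with it as a repressor. Because control acts largely on the protein, the level of Nfe2l2 mRNA and the activity of NRF2 are different quantities, and only mRNA was measured here. In the brain, astrocytes and microglia are generally held to have a stronger NRF2 response than neurons.

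The core of the antioxidant response element, TGACNNNGC, was searched on both strands of RefSeq promoter windows (GRCm38.p6), each reaching from 250 bases before to 50 bases after an annotated start. Windows were given for 9 of the 10 genes, all but Gclc, and 5 of the 9 genes had a match: Nfe2l2, Gclm, Txnrd1, Srxn1 and Sod1. Over all genes with a window, 3781 of 27025 (14.0%) had a match, and 12.4% of all single windows did. The 5 matches are shown with 10 bases on either side, to give the sequence around each core. Only the fixed letters of the core were searched, so differences at the other bases follow from the search. Capitals mark the core, with its 3 free bases inside.
Nfe2l2: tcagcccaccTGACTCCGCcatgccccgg
Gclm: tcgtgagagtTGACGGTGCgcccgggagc
Txnrd1: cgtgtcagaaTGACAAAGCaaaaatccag
Srxn1: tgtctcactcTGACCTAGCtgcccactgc
Sod1: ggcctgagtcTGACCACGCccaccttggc

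Coordinates are those of the whole printed stretch of 29 bases, and distances run from the annotated start to the most upstream base of the core, read along the gene. The Nfe2l2 stretch lay on the minus strand at chr2:75704885-75704913, the strand of the gene, and its core began 240 bases before the start. The other 4 lay on the strand opposite to their gene, which is the minus strand in each case. In Gclm (chr3:122245413-122245441) the core began 134 bases before the start and in Sod1 (chr16:90220696-90220724) 56 bases before it, both outside any annotated transcript of these genes in GENCODE vM21. In Txnrd1 (chr10:82859104-82859132) it began 92 bases before the start of 1 of its 3 windows, within an intron of a longer Txnrd1 transcript. In Srxn1 (chr2:152105542-152105570) it began 28 bases after the start, in the opening exon of the gene, in the untranslated part of its coding transcript. A match to these letters is a description of the sequence and does not show that NRF2 binds there. Sequence outside the windows was not searched, so a gene without a match cannot be said to lack an element.

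Nfe2l2 mRNA rose in every BCAS mouse, and by more than any of the other 9 genes. Nfe2l2 (ENSMUSG00000015839.6, chromosome 2, 75675513 to 75704641, minus strand, mm10) was read at 17.0, 16.7, 15.7 and 17.0 CPM in the 4 sham libraries. In BCAS libraries 1 to 4 it was read at 122, 35.4, 98.4 and 71.4 CPM. The groups did not overlap, and the lowest BCAS mouse stood above every sham mouse by a wide margin. The mean was 16.6 ± 0.602 CPM in sham and 81.8 ± 37.2 CPM in BCAS mice (SD, n = 4 each), a 4.93-fold difference of means. In edgeR's quasi-likelihood test the log2 fold change of BCAS over sham was 2.30 (SE 0.32, 95% interval 1.57 to 3.03, Benjamini-Hochberg adjusted p = 0.00279). This lay at the 95.8th percentile of the log2 fold changes of all tested genes. Without any single library the Nfe2l2 change stayed between 2.06 and 2.56, with adjusted p values of at most 0.0165.

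Nfe2l2 was the only gene of the 10 that passed both thresholds of the study for differentially expressed genes, an adjusted p below 0.05 together with a log2 change of more than 1 in either direction, which 12.2% of all tested genes passed, 11.0% upwards and 1.28% downwards. At the adjusted p alone, 4 of the 10 rose (Nfe2l2, Txnrd1, Gpx1 and Cat), 1 fell (Sod2) and 5 had no call (Nqo1, Gclc, Gclm, Srxn1 and Sod1). Among all tested genes, 19.2% rose and 12.8% fell by that rule, so 59.9% of the calls were increases, a share that was 75.5% when libraries were scaled by their total counts alone. As a median, the 10 had a log2 fold change of 0.29, beside -0.0062 over all tested genes (quartiles -0.30 and 0.40). The groups did not overlap in 3 of the 10, with BCAS above every sham library in Nfe2l2 and Cat (18.5% of all tested genes) and below in Sod2 (16.3%). The number of calls among the 10 changed with single mice left out. It was 7 without BCAS mouse 2, 4 without BCAS mouse 1, 3 without BCAS mouse 4 and 2 without sham mouse 3. It was 1 without sham mouse 1, 2 or 4 or BCAS mouse 3. Calls over all tested genes changed as well. They were 5490 of 17136 with all libraries, 8166 of 17567 without BCAS mouse 2 and 2549 of 17613 without sham mouse 1.

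**Figure D1:**
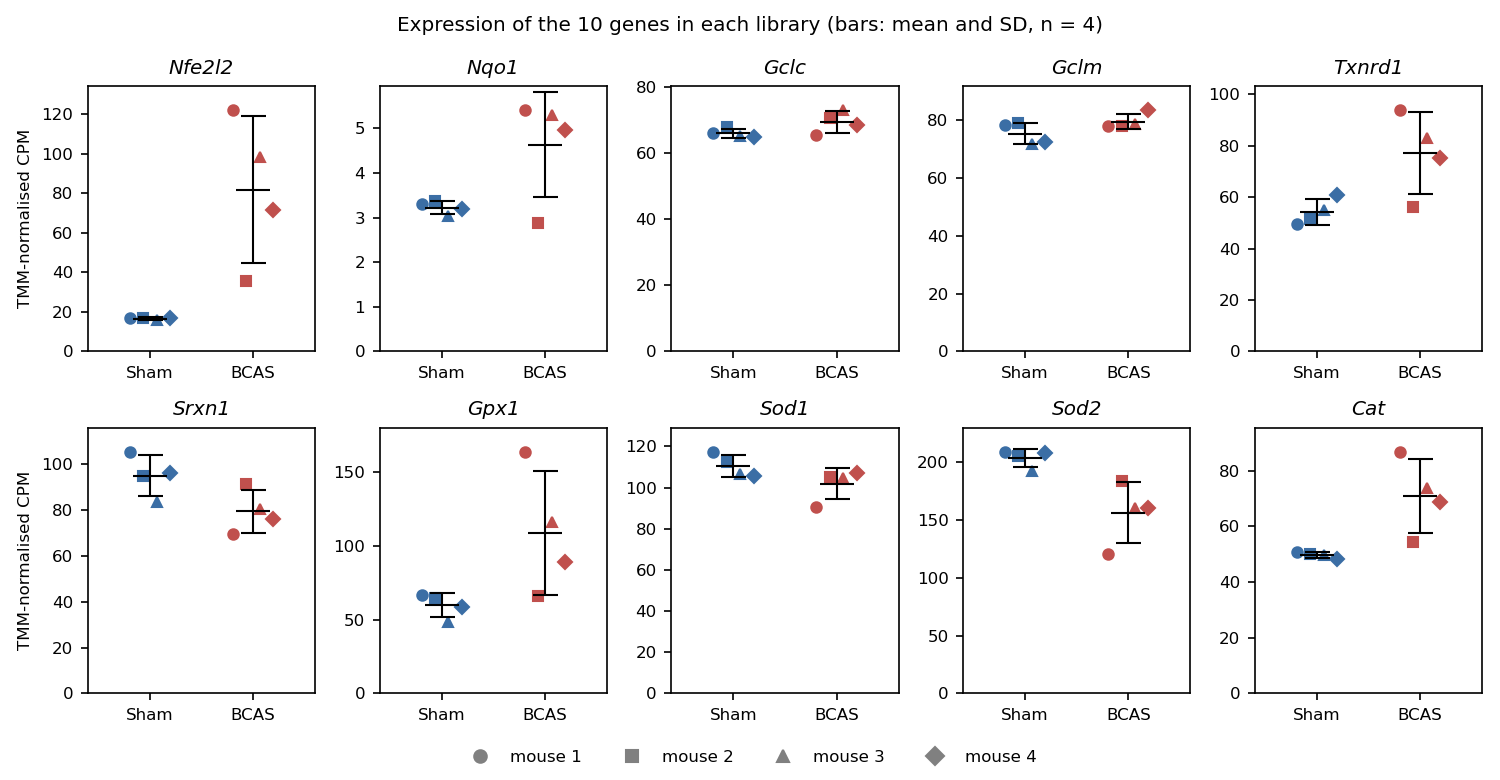
Level of each of the 10 genes in TMM-normalised CPM (vertical axes, each from 0) in the 4 sham and 4 BCAS libraries, with 1 point per mouse, the shape giving the mouse number and the bars the mean and SD (n = 4). Nfe2l2 lies between 15.7 and 17.0 CPM in sham and between 35.4 and 122 CPM in BCAS mice, while Gclc and Gclm lie in nearly the same range in both groups.

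The BCAS mice differed among themselves much more than the sham mice. BCAS mouse 1 was farthest from the sham mean in 8 of the 10 genes, and BCAS mouse 2 was nearest to it in 8 of the 10. Relative to the sham mean, the log2 level of Nfe2l2 was higher by 2.88, 1.09, 2.57 and 2.10 in the 4 BCAS mice, in the order of their numbers. The coefficient of variation of Nfe2l2 was 3.63% in sham and 45.4% in BCAS mice, and it was larger in BCAS mice in 9 of the 10 genes, all but Gclm. The same numbers in the names of sham and BCAS mice do not mark shared litters or days in the labels.

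**Figure D2:**
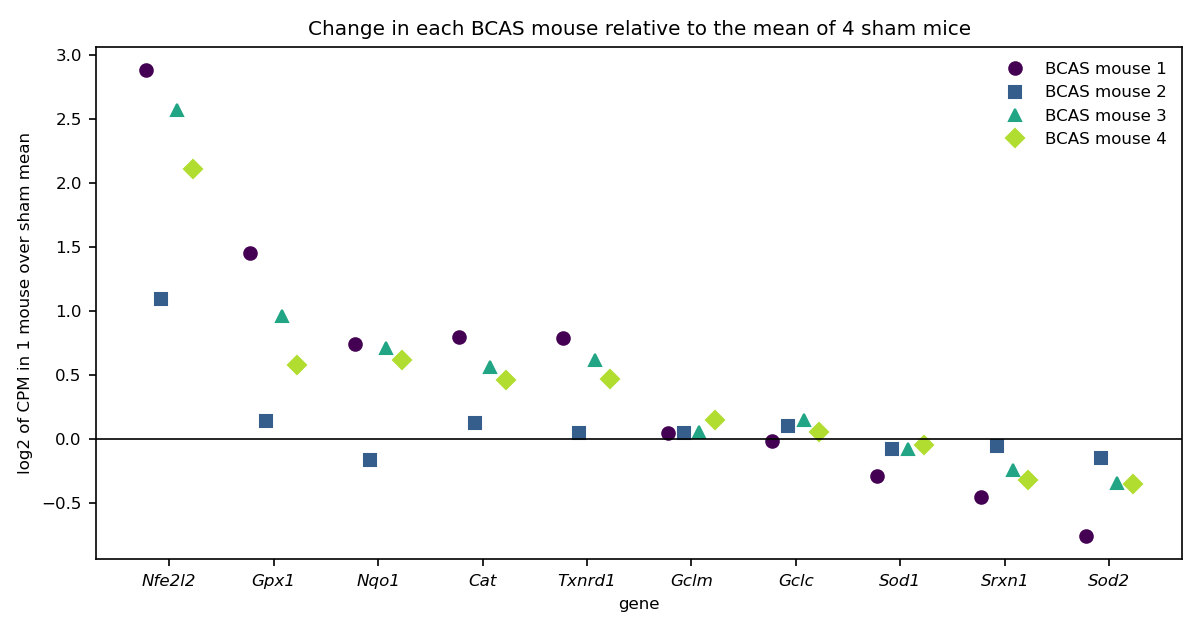
Log2 of the CPM in each BCAS mouse over the mean of the 4 sham mice (vertical axis) for the 10 genes (horizontal axis), with 1 symbol per BCAS mouse and a line at 0 for the sham mean. BCAS mouse 1 is the farthest from the line in 8 genes and BCAS mouse 2 the nearest in 8 genes, and Gclc and Gclm stay close to the line in all 4 mice.

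Markers of several cell types moved in the same libraries. Among all tested genes 19.2% rose and 12.8% fell, so 1 or 2 calls in a list of 7 or 9 genes are near that share. All 10 microglia and macrophage markers rose, and their summed level was 350 to 427 CPM in sham libraries and 6230, 1628, 3184 and 3283 CPM in BCAS mice 1 to 4. BCAS mouse 1 was thus highest and BCAS mouse 2 lowest in both these markers and Nfe2l2, while BCAS mice 3 and 4 stood in the opposite order for the markers. Of 10 neuronal markers 8 fell and 0 rose, from a summed 12760 to 15026 CPM to 5310, 11035, 8268 and 7870 CPM. In astrocytes 7 of 9 markers rose (5325 to 6181 CPM in sham, 7032 to 10103 CPM in BCAS), and all 5 fibroblast and mural cell markers rose (86.4 to 107.9 CPM against 165 to 773 CPM). Markers of the oligodendrocyte lineage rose in 1 of 9 cases (3928 to 6233 CPM in sham, 5452 to 8439 CPM in BCAS) and those of endothelial cells in 2 of 7 (283 to 369 CPM against 344 to 489 CPM). Blood-borne leukocyte markers summed to 1.15 to 1.87 CPM in sham and 4.53 to 104 CPM in BCAS libraries. Of the 8, 3 were tested and all 3 were higher. Among these, Ly6c2 (0.0889 CPM) and Cd8a (0.0912 CPM) averaged below the floor of 0.187 CPM in sham mice. Both passed the filter only through the BCAS libraries, so only a higher call was possible for them. Red blood cell markers rose in 2 of 5 cases (59.3 to 80.8 CPM in sham, 94.5 to 123.7 CPM in BCAS), striatal markers in 1 of 7 (271 to 507 CPM against 403 to 812 CPM) and choroid plexus markers in 0 of 6. No marker of any list was at 0 in all libraries. In bulk tissue, more or fewer cells of a type and more or less RNA per cell cannot be told apart, and the part of these markers in the changes of the 10 genes was not tested.

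**Figure D3:**
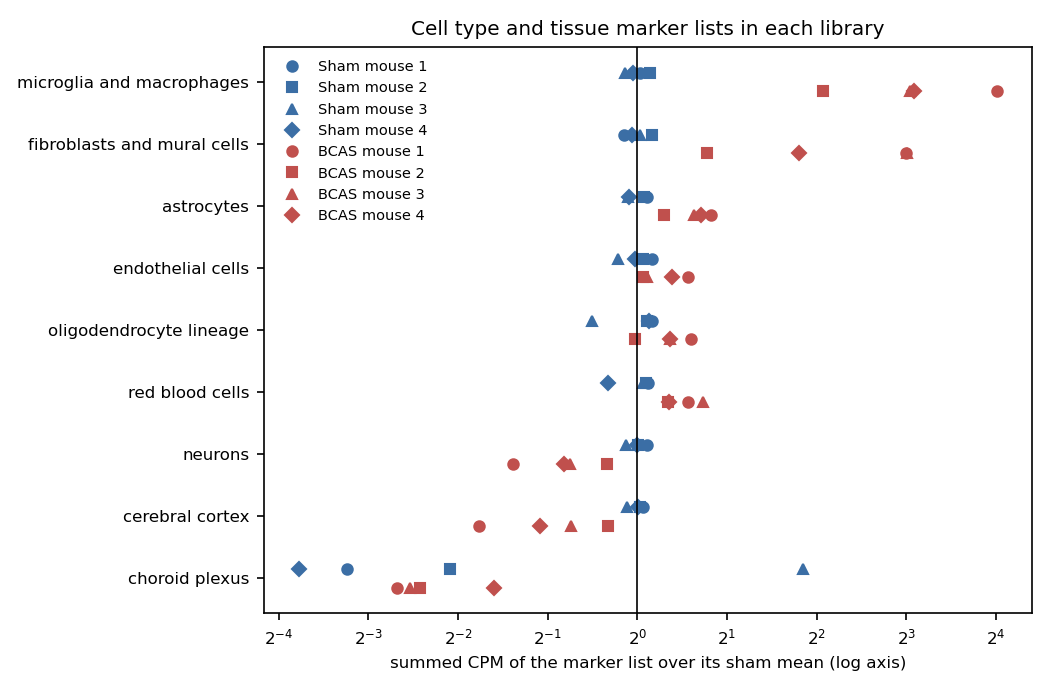
Summed TMM-normalised CPM of the fixed cell type and tissue marker lists in each library, divided by the sham mean of the list (log axis). Each mouse is 1 point, and the blood-borne leukocyte and striatal lists are not drawn. Before this division the microglia and macrophage sum was 350 to 427 CPM in sham and 1628 to 6230 CPM in BCAS mice. The neuronal sum lies lower in all BCAS mice than in all sham mice.

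Of the 5 classical target enzymes, 1 rose and 0 fell, where 19.2% of all tested genes rose and 12.8% fell. This was Txnrd1, the cytosolic thioredoxin reductase that returns thioredoxin to its reduced form. Txnrd1 (ENSMUSG00000020250.10, chromosome 10, 82833951 to 82897712, plus strand) was read at 49.7, 51.5, 54.9 and 60.9 CPM in sham libraries and at 93.9, 56.1, 83.0 and 75.2 CPM in BCAS libraries 1 to 4. BCAS mouse 2 lay inside the sham range and the other 3 BCAS mice lay above it. The means were 54.3 ± 4.92 and 77.1 ± 15.9 CPM (SD, n = 4 each), 1.42-fold apart. BCAS exceeded sham by 0.51 on the log2 scale (SE 0.15, edgeR adjusted p = 0.0321). That call held only without BCAS mouse 2 (adjusted p = 0.00155), and without any of the other 7 libraries the Txnrd1 change of 0.41 to 0.56 had adjusted p values of 0.0522 to 0.0898.

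Nqo1, a quinone reductase that is the most used reporter of NRF2 activity, was the lowest of the 10 genes per length of exon and had no call. Nqo1 (ENSMUSG00000003849.8, chromosome 8, 107388225 to 107403206, minus strand) was read at 3.30, 3.37, 3.03 and 3.20 CPM in sham libraries, from 53 to 58 counts each. In BCAS libraries it was read at 5.41, 2.885, 5.29 and 4.96 CPM, from 123, 56, 98 and 91 counts. BCAS mice 1, 3 and 4 stood above all sham mice and BCAS mouse 2 stood below them all. The log2 fold change of Nqo1 was 0.52 (SE 0.22, 95% interval 0.02 to 1.03, edgeR adjusted p = 0.0965), close in size to that of Txnrd1 and with a larger error. Without BCAS mouse 2 it was 0.71 with an adjusted p of 0.00904, past the threshold.

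Gclc and Gclm encode the catalytic and the modifier subunit of glutamate-cysteine ligase, the first and rate-limiting step of glutathione synthesis. Neither was called, and both were held to narrow intervals. Gclc (ENSMUSG00000032350.9, chromosome 9, 77754535 to 77794485, plus strand) was read at 66.0, 67.8, 65.0 and 64.8 CPM in sham and at 65.3, 70.7, 73.0 and 68.5 CPM in BCAS libraries. Gclm (ENSMUSG00000028124.15, chromosome 3, 122245557 to 122270732, plus strand) was read at 78.1, 78.9, 71.7 and 72.4 CPM in sham and at 78.0, 77.7, 78.4 and 83.4 CPM in BCAS libraries. The ranges of the groups overlapped for both genes. The log2 fold change of Gclc was 0.07 (SE 0.07, 95% interval -0.08 to 0.22, edgeR adjusted p = 0.407) and that of Gclm was 0.08 (SE 0.07, interval -0.08 to 0.23, adjusted p = 0.405). The upper ends of these intervals lie far below the lower end of the Nfe2l2 interval, 1.57. Gclm shares 4.71% of its exon bases with Gm17494 and Gm6061, and the other 9 genes share none with another gene.

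The ratio of Gclm to Gclc counts within each library, which no scaling of the libraries can alter, was 1.14 ± 0.0379 in sham and 1.15 ± 0.0698 in BCAS mice (SD, n = 4 each). The mean log2 ratio differed by 0.0046 (exact two-sided permutation test over 70 arrangements, p = 0.9143, 0.9143 after Benjamini-Hochberg adjustment over the 3 ratios tested). The smallest p this design allows is 0.0286.

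Srxn1, sulfiredoxin, which repairs peroxiredoxins that have been overoxidised, pointed the other way from Txnrd1 and Nqo1. Srxn1 (ENSMUSG00000032802.8, chromosome 2, 152105516 to 152111376, plus strand) was read at 105.3, 95.1, 83.4 and 96.0 CPM in sham and at 69.5, 91.6, 80.3 and 76.3 CPM in BCAS libraries. BCAS mice 1, 3 and 4 lay below the sham range and BCAS mouse 2 lay inside it. The log2 fold change was -0.26 (SE 0.11, 95% interval -0.50 to -0.02, edgeR adjusted p = 0.0878), which is no call. Without BCAS mouse 2 it was -0.32 with an adjusted p of 0.0207.

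**Figure D4:**
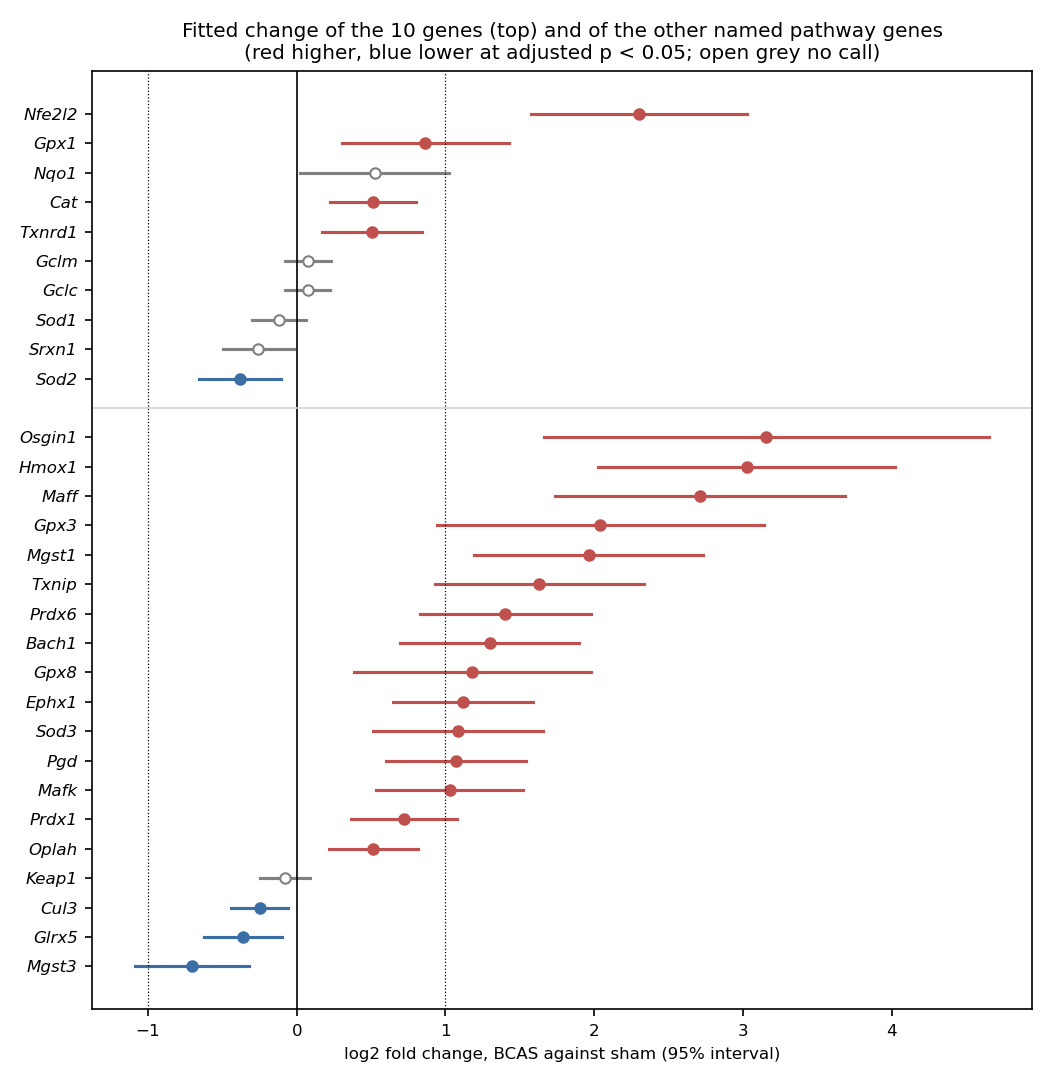
Log2 fold change of BCAS over sham (horizontal axis) with its 95% interval for the 10 genes and the named genes of the pathway lists, from edgeR's quasi-likelihood fit. The Nfe2l2 interval runs from 1.57 to 3.03, above those of all 5 target enzymes, and the intervals of Gclc and Gclm include 0.

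Of the 4 antioxidant enzymes outside the classical NRF2 targets, 2 rose (Gpx1 and Cat), 1 fell (Sod2) and 1 had no call (Sod1), where 19.2% of all tested genes rose and 12.8% fell. Gpx1 is the main cytosolic glutathione peroxidase and Cat is catalase, the peroxisomal enzyme that splits hydrogen peroxide into water and oxygen. Gpx1 (ENSMUSG00000063856.7, chromosome 9, 108338903 to 108340343, plus strand) was read at 66.7, 64.8, 48.6 and 58.8 CPM in sham and at 164, 65.9, 116 and 89.4 CPM in BCAS libraries. BCAS mouse 2 fell within the sham range, so the groups overlapped. The means were 59.7 ± 8.16 and 108.8 ± 42.0 CPM (SD, n = 4 each), 1.82-fold apart, with a log2 fold change of 0.87 (SE 0.25, 95% interval 0.30 to 1.43, edgeR adjusted p = 0.0303). The Gpx1 call was lost without any single sham mouse or without BCAS mouse 3 (adjusted p = 0.0647 to 0.0756), while without BCAS mouse 2 the change was 1.06 (adjusted p = 0.00229), past both thresholds.

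Cat had the smallest coefficient of variation in BCAS mice, 18.8%, of the 4 genes that rose. Cat (ENSMUSG00000027187.10, chromosome 2, 103453849 to 103485160, minus strand) was read at 50.9, 50.2, 49.8 and 48.2 CPM in sham and at 86.7, 54.4, 73.6 and 68.7 CPM in BCAS libraries. All BCAS mice stood above all sham mice, BCAS mouse 2 by the smallest margin. The means were 49.8 ± 1.12 and 70.8 ± 13.3 CPM (SD, n = 4 each), 1.42-fold apart, with a log2 fold change of 0.51 (SE 0.13, 95% interval 0.22 to 0.80, edgeR adjusted p = 0.0197). Without sham mouse 1, 2 or 4 or BCAS mouse 3 the Cat change was 0.49 to 0.51 with adjusted p values of 0.0537 to 0.0581. The ratio of Gpx1 to Cat counts was 1.20 ± 0.154 in sham and 1.49 ± 0.305 in BCAS mice, a difference of 0.31 on the log2 scale that did not pass (exact two-sided permutation test, p = 0.2, adjusted p = 0.3).

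The superoxide dismutases turn superoxide into hydrogen peroxide, Sod1 in the cytosol and Sod2 in the mitochondrial matrix. Sod2 was the only gene of the 10 that fell. Sod2 (ENSMUSG00000006818.5, chromosome 17, 13006846 to 13040063, plus strand) was read at 208, 205, 192 and 207 CPM in sham and at 121, 184, 160.3 and 159.9 CPM in BCAS libraries. Every BCAS mouse stood below every sham mouse, BCAS mouse 1 the farthest. The means were 203.1 ± 7.61 and 156.1 ± 26.2 CPM (SD, n = 4 each), with a log2 fold change of -0.38 (SE 0.12, 95% interval -0.66 to -0.10, edgeR adjusted p = 0.0428). The Sod2 call was lost without any single sham mouse or BCAS mouse 3 or 4 (adjusted p = 0.0642 to 0.0994), and with libraries scaled by total counts alone the change was -0.29 (adjusted p = 0.0786). It was also lost with the looser filter of at least 1 count in total (adjusted p = 0.0629). Stretches of 157 to 193 bases of a Sod2 transcript are at least 95% identical to transcripts of 11 other genes, so some of its reads may be placed uncertainly.

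Sod1 (ENSMUSG00000022982.10, chromosome 16, 90220754 to 90226329, plus strand) was read at 117, 113, 106 and 106 CPM in sham and at 90.7, 105, 105 and 107 CPM in BCAS libraries. BCAS mouse 1 stood below all other mice, and BCAS mouse 4 lay inside the sham range. The log2 fold change of Sod1 was -0.12 (SE 0.08, 95% interval -0.30 to 0.06, edgeR adjusted p = 0.281), with no call. Another gene, Gm8566, carries 465 bases that are 97.8% identical to a Sod1 transcript and was itself counted 32 to 59 times per library, so the split of reads between them is uncertain. The ratio of Sod2 to Sod1 counts was 1.78, 1.82, 1.80 and 1.96 in sham and 1.33, 1.75, 1.53 and 1.49 in BCAS mice, so it was lower in all 4 BCAS mice. The mean log2 ratio was lower in BCAS by the difference of -0.28 (exact two-sided permutation p = 0.0286, the smallest possible), which did not pass after adjustment over the 3 ratios (adjusted p = 0.0857). A single ratio at the smallest possible p cannot pass this adjustment on its own, whatever its size, so the adjusted value does not decide the question.

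Per kilobase of exon, the order of the 10 genes differed between the groups. The divisor was the length of all annotated exons of a gene together, from 1441 bases for Gpx1 to 10008 bases for Sod2. It is not the length of the transcripts present in the tissue, so the order between genes depends on the annotation. In sham mice Gpx1 was highest (41.4 ± 5.66 CPM per kilobase, SD, n = 4), followed by Srxn1 (33.7 ± 3.18), Sod1 (27.8 ± 1.38), Sod2 (20.3 ± 0.760), Cat (19.0 ± 0.429), Gclc (17.5 ± 0.358), Gclm (11.96 ± 0.594), Txnrd1 (7.66 ± 0.694), Nfe2l2 (4.37 ± 0.159) and Nqo1 (2.08 ± 0.0941 CPM per kilobase). Only Gpx1 and Srxn1, and Sod2 and Cat, had overlapping sham ranges among neighbours in this order. In BCAS mice Nfe2l2 moved from rank 9 to rank 5 (21.6 ± 9.79 CPM per kilobase), Cat from 5 to 3 (27.1 ± 5.11) and Sod2 from 4 to 7 (15.6 ± 2.62). Gpx1 stayed first at 75.5 ± 29.1 CPM per kilobase and Nqo1 last at 2.99 ± 0.762. In BCAS mice the ranges of all neighbours overlapped except those of Gpx1 and Srxn1 and of Txnrd1 and Nqo1.

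**Figure D5:**
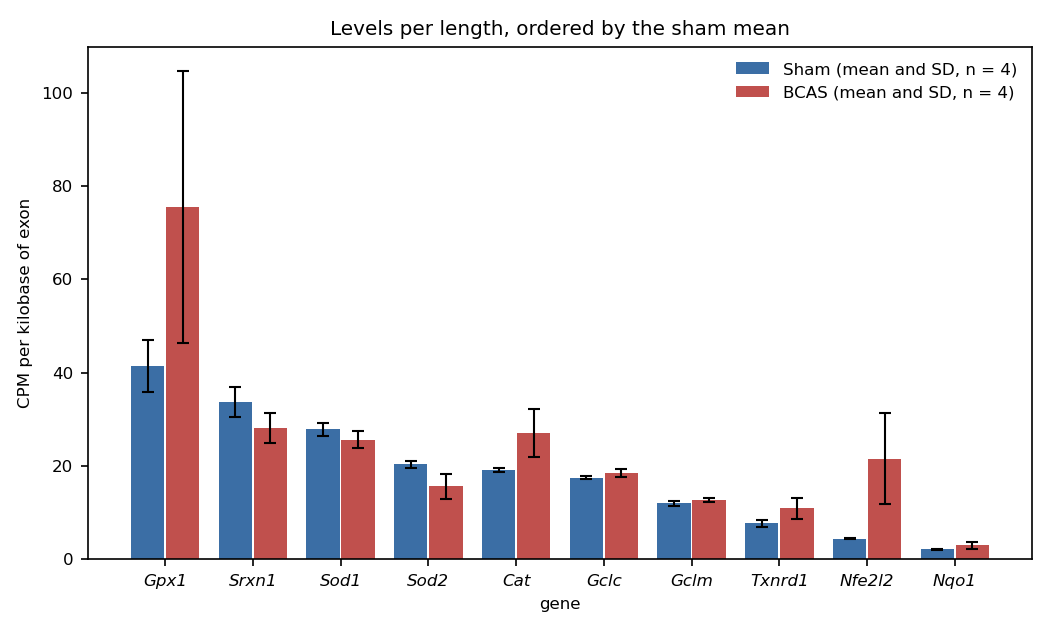
Mean level of the 10 genes in CPM per kilobase of exon (vertical axis from 0) in sham and BCAS mice, ordered by the sham mean, with error bars of 1 SD (n = 4 each). Nfe2l2 stands at 4.37 in sham and 21.6 in BCAS mice, whereas Gclc stands at 17.5 and 18.4 and Gclm at 11.96 and 12.6.

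Of 10 genes that act on NRF2 protein or share its binding sites, 3 rose (Maff, Bach1 and Mafk, all past both thresholds), 1 fell (Cul3) and 6 had no call, and their median log2 fold change was -0.01. Among all tested genes, 19.2% rose, 11.0% rose past both thresholds and 12.8% fell. The 6 without a call were Keap1, Rbx1, Sqstm1, Nfe2l1, Nfe2l3 and the third small MAF gene, Mafg (log2 fold change 0.06, edgeR adjusted p = 0.575). In Rbx1, Sqstm1 and Nfe2l1 every BCAS library stood below every sham library, as in 16.3% of all tested genes. Their log2 fold changes were -0.23, -0.22 and -0.28 (edgeR adjusted p = 0.063, 0.088 and 0.058). In Keap1, Nfe2l3 and Mafg the groups overlapped. Keap1, the repressor that holds NRF2, was at 71.0 ± 3.71 CPM in sham and 67.2 ± 3.87 CPM in BCAS mice (SD, n = 4 each), a log2 change of -0.08 (SE 0.07, 95% interval -0.25 to 0.09, edgeR adjusted p = 0.429) that turned to 0.0096 when libraries were scaled by total counts alone. Keap1 shares 10.9% of its exon bases with Gm16754 on the opposite strand, and reads were counted without regard to strand. Cul3, the ligase scaffold, was read at 174 to 186 CPM in sham and 140.3 to 168 CPM in BCAS libraries, a log2 change of -0.25 (SE 0.08, adjusted p = 0.0490). Without any single library other than BCAS mouse 2 the Cul3 call was lost (adjusted p = 0.0790 to 0.127), as it was under 6 of the 10 other alternatives (0.0515 to 0.127).

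Bach1, the repressor that competes with NRF2 at its elements, was read at 20.7, 18.6, 23.1 and 20.4 CPM in sham and at 79.3, 28.8, 53.2 and 42.2 CPM in BCAS libraries. All BCAS mice stood above all sham mice. Bach1 rose by 1.30 on the log2 scale (SE 0.27, edgeR adjusted p = 0.00963). Maff and Mafk are small MAF proteins, the dimer partners of both NRF2 and BACH1. Maff was read at 0.909 to 2.29 CPM in sham and 3.97 to 12.8 CPM in BCAS libraries (log2 fold change 2.71, SE 0.43, adjusted p = 0.00407, and 1.995 with limma on log2(CPM + 1)). Mafk was read at 9.04 to 13.2 CPM in sham and 14.3 to 28.7 CPM in BCAS libraries (log2 fold change 1.03, SE 0.22, adjusted p = 0.0111). Mafk kept its call but fell below the log2 threshold of 1 with limma on log2(CPM + 1) (0.94) and without sham mouse 1 or 4 or BCAS mouse 1 or 3 (0.90 to 0.98). Mafk shares 4.33% of its exon bases with Tmem184a on the opposite strand.

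Of 19 further NRF2 targets, 10 rose, 0 fell and 9 had no call, with a median log2 fold change of 0.54, and 5 of the 10 passed both thresholds. The shares of all tested genes were 19.2% risen, 12.8% fallen and 11.0% risen past both thresholds. The largest changes were in Hmox1 and Osgin1. Hmox1, heme oxygenase 1, was read at 3.35, 4.31, 2.86 and 3.50 CPM in sham and at 45.1, 9.48, 37.3 and 22.2 CPM in BCAS libraries, with no overlap. Hmox1 rose by 3.03 on the log2 scale (SE 0.44, 95% interval 2.03 to 4.02, edgeR adjusted p = 0.00302). Osgin1, an oxidative stress-induced growth inhibitor, was read from 2 to 11 counts in sham and 32 to 208 counts in BCAS libraries (log2 fold change 3.16, SE 0.66, adjusted p = 0.0105). The size of the Osgin1 change depended on the method and on 1 mouse, with 1.64 for limma on log2(CPM + 1) and 2.48 without BCAS mouse 1, and Osgin1 did not pass a filter of at least 10 counts in every library. Hmox1 is also a classical target of the repressor BACH1.

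Pgd, an enzyme of the pentose phosphate pathway that makes NADPH, rose from 30.9 ± 1.55 to 65.0 ± 20.7 CPM (log2 fold change 1.07, SE 0.21, edgeR adjusted p = 0.00804). Ephx1, microsomal epoxide hydrolase, rose from 20.2 ± 1.12 to 43.9 ± 13.6 CPM (log2 fold change 1.12, SE 0.21, adjusted p = 0.00695). In Hmox1, Osgin1, Pgd and Ephx1 all BCAS mice stood above all sham mice, BCAS mouse 1 was highest and BCAS mouse 2 lowest. All 4 calls held without any single library (adjusted p of at most 0.0342), but without BCAS mouse 1 the changes of Pgd (0.88) and Ephx1 (0.94) were below the log2 threshold of 1, as was that of Pgd with limma on log2(CPM + 1) (0.99). Ephx1 shares 3.69% of its exon bases with Gm36961.

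Of 15 further glutathione genes, 4 rose, 2 fell and 9 had no call, with a median log2 fold change of -0.05, while 19.2% of all tested genes rose and 12.8% fell. Mgst1 and Mgst3, both membrane-bound glutathione transferases, moved in opposite directions without overlap of the groups, Mgst1 from 3.66 to 5.25 CPM in sham to 7.62 to 27.0 CPM in BCAS libraries (log2 fold change 1.96, SE 0.34, edgeR adjusted p = 0.00533) and Mgst3 from 56.2 to 69.0 CPM to 26.0 to 47.6 CPM (log2 fold change -0.71, SE 0.17, adjusted p = 0.0170). Gpx3, the secreted relative of Gpx1, rose by 2.04 on the log2 scale (SE 0.49, adjusted p = 0.0165), from 4.15 to 7.95 CPM in sham to 7.06 to 36.1 CPM in BCAS libraries, with BCAS mouse 2 inside the sham range. The other calls were Gpx8 (log2 fold change 1.18, past both thresholds, adjusted p = 0.0339, but 0.93 with limma on log2(CPM + 1)), Oplah (0.52, adjusted p = 0.0213, with 11.7% of its exon bases shared with Exosc4 and Smpd5 on the opposite strand) and Glrx5 (-0.36, adjusted p = 0.0423). In this list the Mgst1 call alone held without any single library: Mgst3 was lost without sham mouse 1 or 2 (adjusted p of at most 0.0525), Gpx3 without sham mouse 1, 2 or 4 (at most 0.0553), Oplah without sham mouse 2 or 4 or BCAS mouse 4 (at most 0.0626), Gpx8 without any library but sham mouse 3 and BCAS mouse 2 (at most 0.0913) and Glrx5 without sham mouse 1, 2 or 4 or BCAS mouse 1 or 3 (at most 0.106). With limma-voom the calls of Gpx3 (adjusted p = 0.0606) and Gpx8 (adjusted p = 0.0681) were also lost, and that of Glrx5 was lost with scaling by total counts alone (adjusted p = 0.0945) and with the looser filter (adjusted p = 0.0650).

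Of 16 thioredoxin, peroxiredoxin and superoxide dismutase genes, 5 rose, 0 fell and 11 had no call, and the median log2 fold change was 0.20. In all 4 lists together, 22 of 60 genes rose, 3 fell and 35 had no call, where 19.2% of all tested genes rose and 12.8% fell. Prdx6 and Prdx1, peroxiredoxins that remove peroxides beside Gpx1 and Cat, rose by 1.40 (SE 0.25, edgeR adjusted p = 0.00622) and 0.72 (SE 0.16, adjusted p = 0.0121) on the log2 scale, without overlap of the groups. Txnip, which binds and inhibits the thioredoxin that Txnrd1 reduces, rose from 22.4 ± 4.54 to 69.3 ± 30.5 CPM (log2 fold change 1.63, SE 0.31, adjusted p = 0.00760), although 19.4% of its exon bases are shared with Gm15441 on the opposite strand. Sod3, the extracellular superoxide dismutase, rose from 15.2 ± 2.70 to 32.1 ± 10.8 CPM (log2 fold change 1.08, SE 0.25, adjusted p = 0.0152), with BCAS mouse 2 inside the sham range, and its call was lost without sham mouse 4 (adjusted p = 0.0503). Of the 3 superoxide dismutases, then, Sod3 rose, Sod1 had no call and Sod2 fell.

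By the root-mean-square difference of the log2 CPM profile over the 8 libraries, each profile set to its sham mean, the 5 genes nearest to Nfe2l2 among 10941 genes were Csf1 (0.107), Srgn (0.116), Cd274 (0.123), Fgd2 (0.125) and Il10rb (0.134). Csf1, a growth factor for macrophages and microglia, had a log2 fold change of 2.25, and those of the other 4 were 2.32 to 2.42. No other gene of the 10 was among these nearest profiles of Nfe2l2. Within the 10, the nearest pairs were Gclc and Gclm (0.0613), Txnrd1 and Cat (0.104) and Nqo1 and Cat (0.129). These distances describe 8 shared libraries and carry no test.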

How the data were processed

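Right cerebral cortex of 4 sham and 4 BCAS mice was profiled by paired-end RNA-seq. Per the methods and labels, the authors trimmed reads with Trim Galore, aligned them to mm10 with HISAT2, sorted them with SAMtools 1.9 and counted pairs over exons with featureCounts. The deposited values are these raw counts, without normalization. The file headers name featureCounts 2.0.1 and GENCODE vM20 with no strand option, whereas the processing notes name featureCounts 1.6.3 and the methods RefSeq genes. Symbols came from GENCODE vM21 by gene ID (54723 of 54752 IDs matched).

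Counts were tested with edgeR 4.0.16 in R 4.3.3: TMM normalization, filterByExpr (minimum count 10, minimum total 15; 17136 genes kept), quasi-likelihood F-tests between the BCAS and sham groups without covariates, and Benjamini-Hochberg adjustment over all tested genes. "Rose" and "fell" mean an adjusted p under 0.05. The SE of a log2 fold change is its size over the square root of F. CPM are TMM-normalised. The labels call the 8 libraries biological replicates, from separate mice, and no 2 libraries agreed within counting noise. Ratios of counts were compared by exact permutation tests. The depth (16759364 to 21794435 counts) sets a counting floor of 3 counts, which covers counting error only. Near-identical transcripts were searched in GENCODE vM21 (at least 150 bases and 95% identity).

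The genes, lists, markers and tests were chosen with earlier results of these data known, so none is independent support. Named genes are the 10 genes, in each pathway list up to 4 higher and 3 lower calls with the largest change, Hmox1, Keap1 and Bach1 whatever their values, and the 5 nearest profiles to Nfe2l2 and the nearest to each other gene, among genes with a mean of at least 10 CPM (log2 CPM with a prior count of 2). Outside this rule, Rbx1, Sqstm1, Nfe2l1, Nfe2l3, Mafg and Slc7a11 are named, as are the markers Ly6c2 and Cd8a. Alternatives were 3 other scalings, 2 other filters, robust edgeR, DESeq2 1.42.0, limma-voom and limma 3.58.1 on log2(CPM + 1), which is close to the study's method, the replicate number as a block, and each library left out in turn.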

Additional observations from a re-analysis of the deposited data

Results flagged for a closer look

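In 64 groups of 4 libraries, 5 values stood apart from the other 3 libraries of their group by Dixon's criterion at 95%. Chance alone gives about 1 such value in 20 groups. Gclm was at 83.4 CPM in BCAS mouse 4 and at 77.7 to 78.4 CPM in the other BCAS mice. Sod1 was at 90.7 CPM in BCAS mouse 1 and at 105 to 107 CPM in the others. The remaining 3 values belong to sham mouse 3, the library with the high choroid plexus markers. In it Ephx1 was at 21.9 CPM (19.6 to 19.7 CPM in the other sham mice), Gpx8 at 5.38 CPM (3.00 to 3.35 CPM) and Maff at 2.29 CPM (0.909 to 0.965 CPM). Without sham mouse 3, Ephx1, Gpx8 and Maff kept their direction and their call.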

How the results depend on the processing

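None of the 10 genes changed direction under any alternative, and Nfe2l2 was called under all 18 of them (log2 fold change 2.06 to 2.56). Of the 10 genes, 5 were called; the other scalings, filters and tests gave 4 or 5, and leaving out 1 library gave 1 to 7. With the replicate number as a block, 2 were called (Nfe2l2 and Cat), and 3546 of all tested genes in place of 5490. Under the block Cul3 and Glrx5 also lost their calls (adjusted p = 0.1001 and 0.0770). Deviations of same-numbered mice from their group means showed no pairing (correlations -0.10 to 0.0013). With 4 mice per group and widely differing BCAS mice, these correlations cannot settle whether mice were paired. Past both thresholds there was 1 gene, or 1 to 2 with 1 library left out. Calls in the pathway lists, 25, were 20 to 36 under other settings and 14 to 39 without 1 library, and calls over all genes were 2549 to 8166 without 1 library. The difference in the Gclm to Gclc log2 ratio, 0.0046, had no fixed sign (-0.025 to 0.035 without 1 library), nor had the Keap1 change (0.0096 by total counts alone). Without 1 library the Gpx1 to Cat difference was 0.19 to 0.40 and the Sod2 to Sod1 difference -0.35 to -0.21. The causes were not tested. Only Nfe2l2 of the 10 kept its call without each single mouse, with 4 mice per group.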

Other observations

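Slc7a11, the cystine transporter that supplies glutathione synthesis, was the fifth further NRF2 target past both thresholds (log2 fold change 1.04, edgeR adjusted p = 0.00736). It lies outside the rule for named genes and was chosen after its values were seen. Its change is close to the log2 threshold of 1 and was not followed through the alternatives. BCAS mice 1 to 4 stood 1.27, 0.46, 1.39 and 0.85 above the sham mean on the log2 scale. Slc7a11 thus rose in the same libraries in which Gclc and Gclm had no call.

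The nearest profile to Nqo1 among 10941 genes was that of G6pdx, which makes NADPH in the pentose phosphate pathway and is itself in the list of further NRF2 targets (root-mean-square difference 0.0858). G6pdx was at 30.3 CPM in sham and 43.9 CPM in BCAS mice on average (log2 fold change 0.54, edgeR adjusted p = 0.0370), beside 0.52 for Nqo1. Of the exon bases of G6pdx, 13.6% are shared with Ikbkg on the opposite strand. The nearest profile to Sod2 was that of Slc25a4, the mitochondrial ADP/ATP carrier (0.0250), with a log2 fold change of -0.37 (adjusted p = 0.0498). The nearest to Cat was that of Tfe3, a transcription factor of lysosomal genes (0.0373), with a log2 fold change of 0.51 (adjusted p = 0.0241). For the other genes the nearest profiles were Stk17b for Gpx1 (0.0775), Twf1 for Txnrd1 (0.0508), Poldip2 for Srxn1 (0.0383), Tmem248 for Gclc (0.0361), Hdhd2 for Sod1 (0.0305) and Vegfb for Gclm (0.0263). These are descriptions of profiles over 8 libraries, without a test.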
